A study of Mus musculus with 4 samples.

Results

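The Mediator complex was described across 4 one-colour Agilent arrays of sorted mouse LSK cells through 32 of its subunit genes, out of 19287 genes with a symbol and a measurable probe. Members were taken by symbol: the Med genes named by number, with or without a final l, plus Ccnc and Cdk8. LSK cells are lineage-negative marrow cells positive for Sca-1 and c-Kit, among which blood stem cells and early progenitors are found, and they were sorted by flow cytometry. There were 2 Ezh1 KO arrays and 2 control arrays, all of strain C57Bl/6J. Which stretch of Ezh1 was deleted, what genotype the controls had and how old the mice were is not stated in the labels. Ezh1 encodes a histone H3 lysine 27 methyltransferase of polycomb repressive complex 2. The labels do not say that the arrays of a group came from separate mice, so the spread between them may be technical.

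Mediator carries signals from transcription factors bound at enhancers and promoters to RNA polymerase II. Its head and middle modules contact the polymerase, its tail receives most of the factors, and Med14 is the backbone that joins them. A kinase module built around Cdk8 and cyclin C binds the core reversibly and keeps the polymerase away while it is bound. In mouse blood-forming cells, Med12 is required to maintain the stem and progenitor pool, and Med1 is a partner of Gata1 and of nuclear receptors.

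The Mediator genes were mostly lower on the Ezh1 KO arrays, by small amounts. Of the 32 genes, 25 were lower and 7 were higher, and the median log2 difference, Ezh1 KO minus control, was -0.22, a 1.17-fold lower signal. Over all 19287 genes 47.9% were lower and the median was 0.03. Median centring shifts every gene alike, and with it 31 Mediator genes and 62.2% of all genes were lower, while quantile normalization gave 26 Mediator genes and 58% of all genes. The set was chosen by this same comparison of the knockout with the control arrays, so these differences are a description and no test is attached to them. Across all 43759 measurable probes limma called none at an adjusted p under 0.05, a share of 0%, and 2513 had an unadjusted p under 0.05. A p under 0.05 was listed for 3273 probes in the authors' deposited table, and none passed after Benjamini-Hochberg adjustment of those p-values.

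The promoters of the 3 genes with the lowest log2 differences, Med17, Med19 and Med7, are shown because the ETS core was frequent among the Mediator promoters, a motif picked for display after its share was seen. Each window runs from 250 bases before to 50 bases after the transcription start in RefSeq, build GRCm38.p6, read 5′ to 3′ on the gene's strand. Capitals mark the ETS core, CCGGAA on either strand, the central letters recognised by ETS family factors. The Med17 window lies at chr9:15279857-15280156 on the minus strand, that of Med19 at chr2:84678152-84678451 on the plus strand, and that of Med7 at chr11:46436697-46436996 on the plus strand.
Med17: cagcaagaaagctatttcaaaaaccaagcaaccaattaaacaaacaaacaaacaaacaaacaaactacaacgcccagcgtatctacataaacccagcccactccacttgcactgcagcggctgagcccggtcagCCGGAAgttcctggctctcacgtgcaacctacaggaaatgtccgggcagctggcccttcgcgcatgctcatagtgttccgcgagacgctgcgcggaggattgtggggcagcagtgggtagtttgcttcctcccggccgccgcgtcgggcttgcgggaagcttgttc
Med19: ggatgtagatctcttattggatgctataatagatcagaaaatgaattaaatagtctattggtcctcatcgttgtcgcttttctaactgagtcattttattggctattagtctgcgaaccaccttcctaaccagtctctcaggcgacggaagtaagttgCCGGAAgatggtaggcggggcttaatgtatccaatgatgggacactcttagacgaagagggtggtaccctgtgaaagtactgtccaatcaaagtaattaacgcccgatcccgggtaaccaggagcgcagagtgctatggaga
Med7: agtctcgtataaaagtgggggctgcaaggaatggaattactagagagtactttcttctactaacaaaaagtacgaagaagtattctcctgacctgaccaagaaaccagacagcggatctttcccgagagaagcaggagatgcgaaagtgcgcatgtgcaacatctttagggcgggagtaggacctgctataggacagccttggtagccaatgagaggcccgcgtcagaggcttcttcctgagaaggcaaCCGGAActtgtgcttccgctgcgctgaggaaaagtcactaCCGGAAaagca
The windows of Med17 and Med19 held 1 match each and that of Med7 held 2.

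RefSeq windows were found for 28 of the 32 genes, with none used for Med8, Med23, Med24 and Med30. The ETS core lay in 13 of the 28, or 46.4%, against 15.2% of all 27025 promoter windows and 19.1% of the 17492 windows of coding genes. The GC box GGGCGG lay in 18 Mediator windows, or 64.3%, against 35.9% of all windows and 46.3% of coding ones. The CCAAT box was at the background, in 39.3% of Mediator windows against 37.9% of all windows. The NRF1 motif GCGCATGC lay in 3 Mediator windows, or 10.7%, against 2.8% of all windows, and TATAAA also lay in 3, against 14.2% of all windows. Each motif was read on both strands, and matches of different motifs were counted separately even where they overlapped. Mediator windows had a median GC content of 57.8%, against 52.7% for all windows and 56.3% for coding ones. A letter match describes the window and not a bound site.

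**Figure D1:**
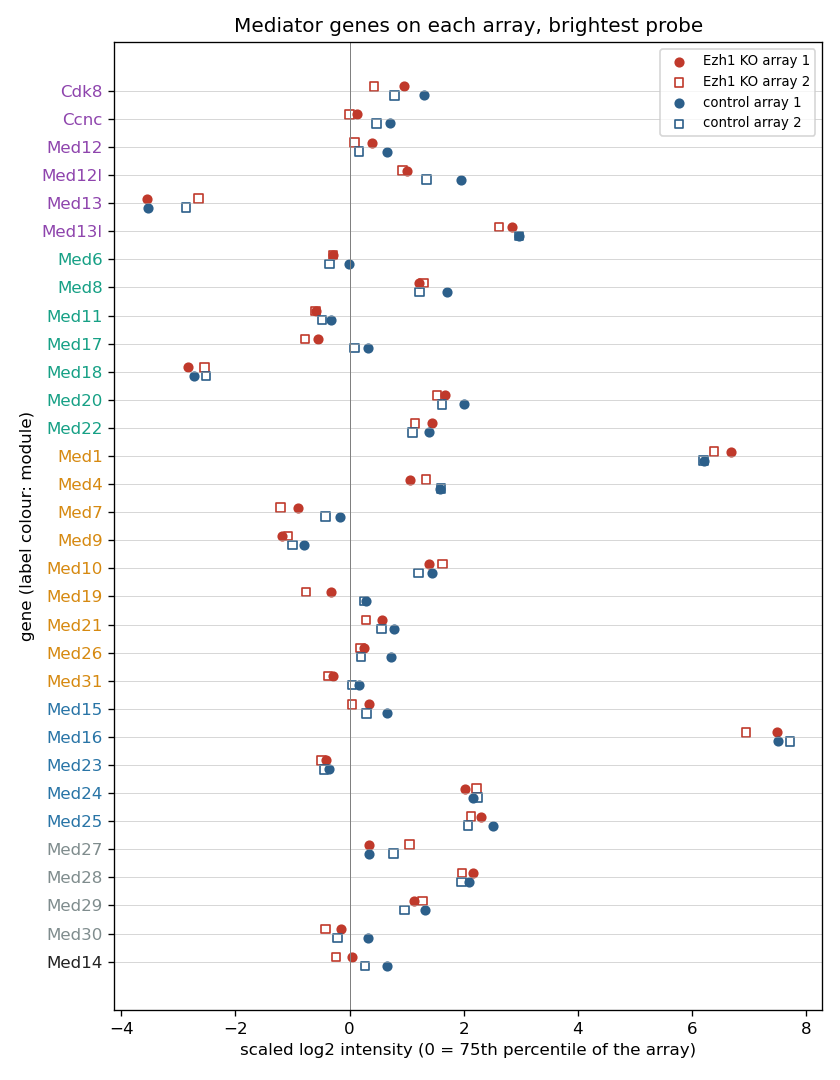
Scaled log2 intensity of the brightest probe of each of the 32 Mediator genes on each array, where 0 is the array's 75th percentile. Red marks are the 2 Ezh1 KO arrays and blue marks the 2 control arrays, and label colours give the module. For Med17, Med7 and Med19 both red marks lie left of both blue ones.

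Signals are given as linear intensities or, where called scaled, as log2 intensity minus the array's 75th percentile, so 0 is the level below which 75% of probes lie. All 32 genes were above the detection limit, the 20th percentile of each array, on all 4 arrays with their brightest probe. The median scaled level over the 32 genes was 0.37 and 0.24 on the Ezh1 KO arrays, against 0.72 and 0.52 on the control arrays. Both knockout medians were below both control medians. The control arrays also differed from each other, with a median gap of 0.23 between control 1 and control 2 and control 1 higher for 25 of the 32 genes. That gap is about the size of the median difference between the groups. Between the Ezh1 KO arrays the median gap was 0.13, with KO 1 higher for 22 genes. Control 1 was thus higher for 78.1% of the Mediator genes, against 52.7% of all genes. For KO 1 the shares were 68.8% and 49.7%.

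The groups did not overlap for 13 of the 32 genes: 12 had both Ezh1 KO arrays below both control arrays, and Med1 had both above. Over all genes 21.0% lay below and 17.5% above in this way, and since the comparison chose the set, nothing is read from the count. For 12 genes, or 37.5% against 26.7% of all genes, the difference between groups was larger than the gap within either group: Ccnc, Med1, Med11, Med12l, Med13l, Med14, Med17, Med19, Med31, Med4, Med7 and Med9. All of these but Med1 were lower on the Ezh1 KO arrays. Among all genes 5150 had such a difference, and 2789 of them were lower. Since the comparison chose the set, nothing is read from these counts either.

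The kinase module was lower in 5 of its 6 genes, with a median log2 difference of -0.30. Ccnc, cyclin C, the activating partner of the kinase, had scaled levels of 0.13 and 0.00 on the Ezh1 KO arrays against 0.71 and 0.47 on the control arrays, a log2 difference of -0.52. Cdk8, the kinase itself, had 0.96 and 0.43 on the Ezh1 KO arrays against 1.30 and 0.79 on the control arrays, a log2 difference of -0.35. The groups of Ccnc were separate and those of Cdk8 overlapped. A second, dimmer Ccnc probe gave -0.20 with overlapping groups. The other Cdk8 probes gave 0.41, with both Ezh1 KO arrays above both control arrays, and -0.30, with both below, so its probes disagree.

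Med12, which activates Cdk8 within the module, had scaled levels of 0.40 and 0.09 on the Ezh1 KO arrays against 0.66 and 0.17 on the control arrays, a log2 difference of -0.17. Its paralog Med12l had 1.01 and 0.93 on the Ezh1 KO arrays against 1.96 and 1.35 on the control arrays, a log2 difference of -0.69. A second Med12l probe gave -0.52, also with separate groups, while the groups of Med12 overlapped. A second, dimmer Med12 probe gave -0.30, with both Ezh1 KO arrays below both control arrays. Med13, which links the kinase to the core, did not pass the stricter 50th percentile filter and had -3.56 and -2.65 on the Ezh1 KO arrays against -3.54 and -2.87 on the control arrays, a log2 difference of 0.10 that turned negative under quantile normalization, cyclic loess and median centring. Its paralog Med13l had 2.84 and 2.62 on the Ezh1 KO arrays against 2.97 on each control array, a log2 difference of -0.24. The alternative kinase Cdk19, which is no member by this rule, had intensities of 4409 and 5332 on the Ezh1 KO arrays against 7936 and 5879 on the control arrays, a log2 difference of -0.29 (limma adjusted p = 0.792).

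The head module, which contacts the polymerase, was lower in 6 of its 7 genes with a median of -0.19. Med17, a central head subunit, had the largest log2 difference among the brightest probes of the 32 genes. Its intensities were 750 and 982 on the Ezh1 KO arrays against 1994 and 1627 on the control arrays. On the scaled log2 scale it averaged -0.66 ± 0.17 on the Ezh1 KO arrays and 0.21 ± 0.17 on the control arrays (SD, n = 2 each), a log2 difference of -0.87 or 1.83-fold. Both knockout values lay well below both control values. Of the other head genes Med11, at -0.19, also had separate groups. Med6, Med8, Med18 and Med20 differed by -0.11, -0.22, -0.07 and -0.21. A second Med8 probe, detected on only 1 Ezh1 KO array, gave -1.34 with overlapping groups. Med22 was higher by 0.05, a sign that turned under median centring.

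The middle module, the hinge between head and tail, was lower in 7 of its 9 genes with a median of -0.25. Med19 had intensities of 869 and 999 on the Ezh1 KO arrays against 1940 and 1826 on the control arrays, a log2 difference of -0.81 or 1.76-fold. Med7, part of the flexible joint of the module in yeast, had intensities of 581 and 730 on the Ezh1 KO arrays against 1420 and 1144 on the control arrays. Its log2 difference was -0.77, and its second probe gave -0.90, both with separate groups. Scaled levels of Med19 averaged -0.55 ± 0.30 on the Ezh1 KO arrays and 0.27 ± 0.02 on the control arrays (SD, n = 2 each). Those of Med7 averaged -1.06 ± 0.21 on the Ezh1 KO arrays and -0.29 ± 0.18 on the control arrays (SD, n = 2 each). Both genes were lower than control on both knockout arrays. Med31, Med4 and Med9 had separate groups too, at -0.44, -0.39 and -0.23. Med21, the partner of Med7, was at -0.24 but a second probe gave 0.57, and Med26, which recruits elongation factors, was at -0.25.

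By its brightest probe Med1 had the largest difference on the other side, but its direction depended on the probe. Its brightest probe read 112023 and 141966 on the Ezh1 KO arrays against 118367 and 113649 on the control arrays. Scaled, these are 6.68 and 6.39 on the Ezh1 KO arrays against 6.21 on each control array, a log2 difference of 0.32. Its 3 other probes were dimmer and all lower, at -0.48, -0.84 and -0.61. Those at -0.48 and -0.84 had both Ezh1 KO arrays below both control arrays. Taking the median over the probes on each array gave -0.66. Med10 had 1.40 and 1.63 on the Ezh1 KO arrays against 1.44 and 1.21 on the control arrays, a log2 difference of 0.19 that turned negative under median centring. A second Med10 probe gave -0.09.

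**Figure D2:**
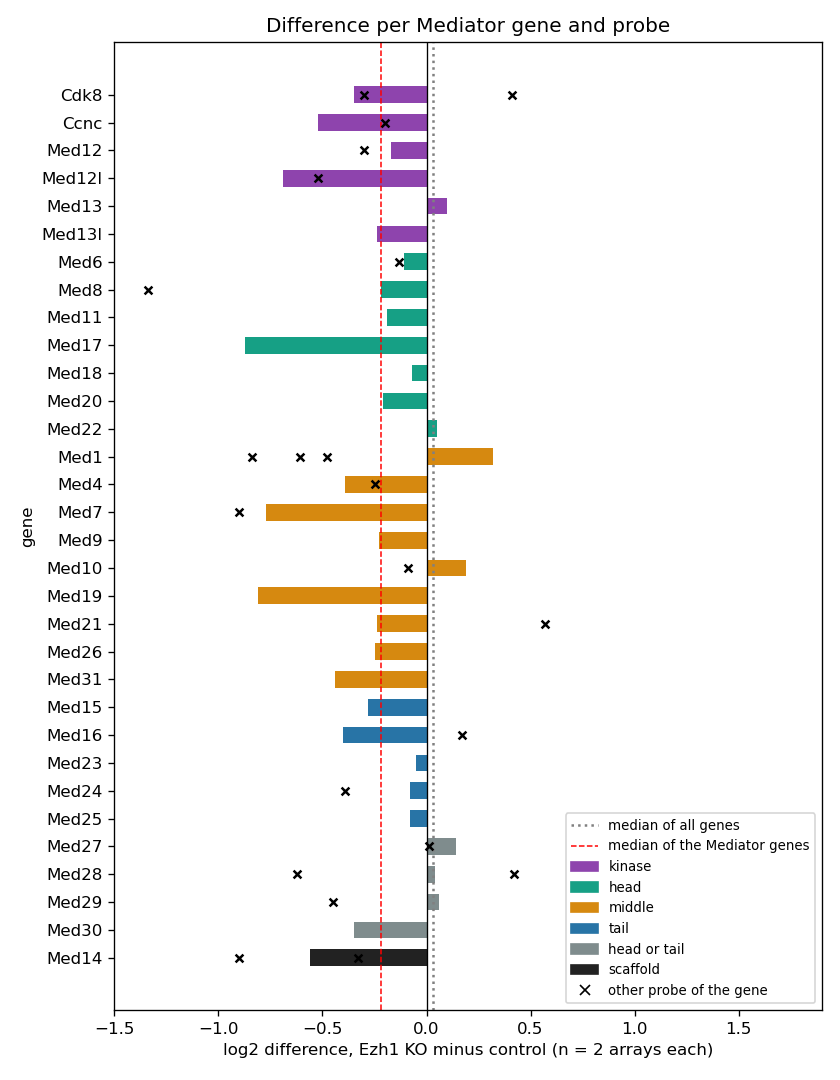
Log2 difference, Ezh1 KO minus control, of the brightest probe of each Mediator gene as a bar coloured by module, with crosses for its other probes. The bars of Med17, Med19 and Med7 reach furthest left, and the 3 crosses of Med1 lie on the opposite side of its bar.

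Med14, the backbone, had scaled levels of 0.04 and -0.24 on the Ezh1 KO arrays against 0.65 and 0.27 on the control arrays, a log2 difference of -0.56. Its groups were separate, and its other probes gave -0.33 and -0.90. All 5 tail genes were lower, with a median of only -0.08. Med23, which receives Elk1, had -0.41 and -0.49 on the Ezh1 KO arrays against -0.36 and -0.45 on the control arrays, a log2 difference of -0.05 that turned to 0.03 under cyclic loess. Med25, known as a target of viral activators, had 2.30 and 2.13 on the Ezh1 KO arrays against 2.51 and 2.08 on the control arrays, a log2 difference of -0.08. In both genes the groups overlapped. Med24 was at -0.08 and Med15, a partner of lipid regulators, at -0.28. A second Med24 probe gave -0.39, with both Ezh1 KO arrays below both control arrays. Med16 had intensities of 196437 and 208820 on the Ezh1 KO arrays against 291879 and 323718 on the control arrays. Its log2 difference was -0.40, with both Ezh1 KO arrays below both control arrays. Its other probe gave 0.17, with both Ezh1 KO arrays above both control arrays, so its probes disagree.

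Med27, Med28, Med29 and Med30, placed in the head or the tail by different sources, showed no common direction, with a median of 0.05. Med27 had 0.35 and 1.05 on the Ezh1 KO arrays against 0.35 and 0.77 on the control arrays, a log2 difference of 0.14. Med29 had 1.13 and 1.28 on the Ezh1 KO arrays against 1.33 and 0.96 on the control arrays, a log2 difference of 0.06. Med28 was at 0.04, and under median centring these 3 genes turned negative. Other probes of Med28 gave -0.62, with both Ezh1 KO arrays below both control arrays, and 0.42, with both above. A second Med29 probe gave -0.45, with both Ezh1 KO arrays below, and a second Med27 probe gave 0.01. Med30 was at -0.35 with overlapping groups.

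Probes of 1 gene are further readings of the same RNA and not replicates. The 32 genes had 54 probes, and 42 of them were lower. Leaving out the brightest probe of each gene left 22 probes, of which 17 were lower with a median of -0.32. Of the 17 genes with more than 1 probe 10 had all probes in 1 direction, 9 of them lower and Med27 higher. Over all 43759 measurable probes of the array 44.2% were lower and the median was 0.09. The comparison chose the set, so these probe counts are a description.

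Genes with brighter probes were lower more often as a whole. Among the 13209 genes above the 50th percentile filter 57.6% were lower and the median was -0.08, against 24 of 30 Mediator genes and a median of -0.24 under the same filter. Median centring moved the median of all genes to -0.19 and quantile normalization to -0.10. The distance of the Mediator median from it was smaller with quantile normalization, at -0.13, than with scaling to the 75th percentile, at -0.25, and it was smallest without control 1, at -0.08. Without control 1 the Mediator median was -0.11 and 22 genes were lower: Med6, Med8, Med12, Med25 and Med26 became higher, and Med13 and Med27 lower. Without control 2 the median was -0.34, and Med18 became higher and Med22, Med28 and Med29 lower. Without KO 1 Med18 and Med24 became higher and Med22 and Med28 lower, and without KO 2 Med25 became higher and Med13, Med27 and Med29 lower. Of the 32 genes 24 were lower in all 5 scalings, 18 were lower whichever array was left out, and 17 were lower in both.

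**Figure D3:**
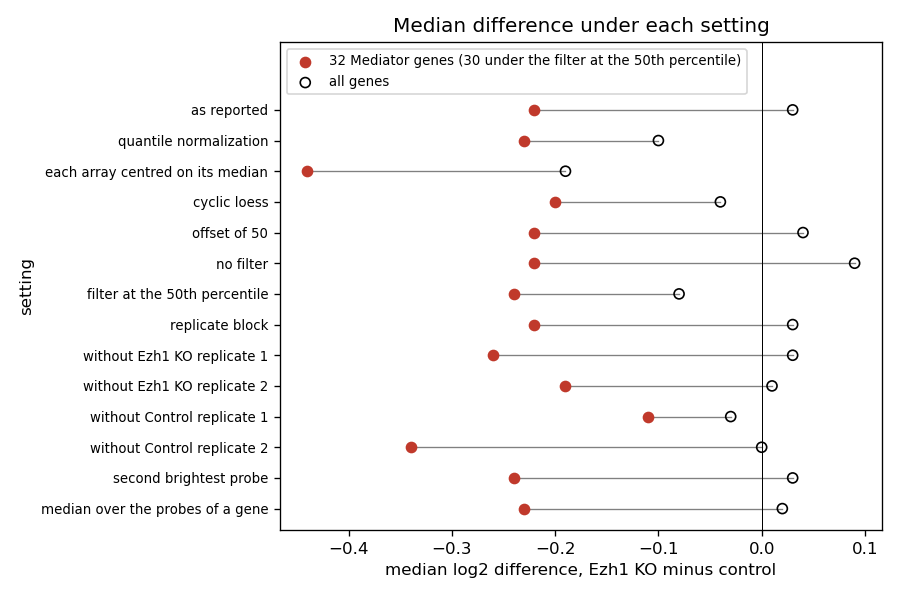
Median log2 difference, Ezh1 KO minus control, of the Mediator genes and of all genes under each processing setting. The Mediator median stays below 0 in every setting shown and is nearest to 0, at -0.11, without control 1. With no filter and with the replicate block the Mediator values are those of the reported setting, so that median cannot move.

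Genes that work with Mediator were listed by complex, and 71 were measured. None passed limma's adjusted threshold, and 3 had an unadjusted p under 0.05, against 2513 of all 43759 probes. Nothing is read from that count. Of the 12 RNA polymerase II subunits 8 were higher and 4 lower, with a median of 0.16 that turned to -0.06 under median centring, and Polr2c, Polr2k and Polr2a were at 0.61, 0.48 and 0.47. The 18 general initiation factors were mostly lower, 16 against 2, with a median of -0.17. Gtf2h4, a TFIIH subunit, had intensities of 437 and 471 on the Ezh1 KO arrays against 1290 and 1002 on the control arrays, a log2 difference of -1.13 (limma adjusted p = 0.78). Gtf2e1 and Gtf2h1 were at -0.74 and -0.55. Of the 13 TFIID genes 10 were lower, with a median of -0.17. Of the 16 pausing and elongation genes 14 were lower, with a median of -0.19. Cohesin is the ring that holds enhancers to promoters together with Mediator. Of its 11 genes 7 were lower, with a median of -0.09. Of all 71 related genes 52 were lower, so being mostly lower was not particular to the Mediator genes. In TFIID, Taf5 was at -0.68, Taf13 at 0.81 and Taf1 at -0.64. Among the elongation genes Larp7, a brake on the elongation kinase, was at -0.57, Ell at -0.44 and the kinase Cdk9 at -0.40. Wapal, which releases cohesin from DNA, had intensities of 1210 and 1806 on the Ezh1 KO arrays against 1086 and 874 on the control arrays, a log2 difference of 0.80 (limma adjusted p = 0.78). Nipbl, which loads cohesin, was at -0.63, and the ring subunit Smc3 was at 0.84. Of the 11 cohesin genes 4 had both Ezh1 KO arrays above both control arrays and 2 had both below. Over all genes these shares were 17.5% and 21.0%, and nothing is read from so small a count. The 3 genes with an unadjusted p under 0.05 were Gtf2h4, Gtf2e1 and Wapal. The difference between the polymerase subunits and Mediator was not tested.

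**Figure D4:**
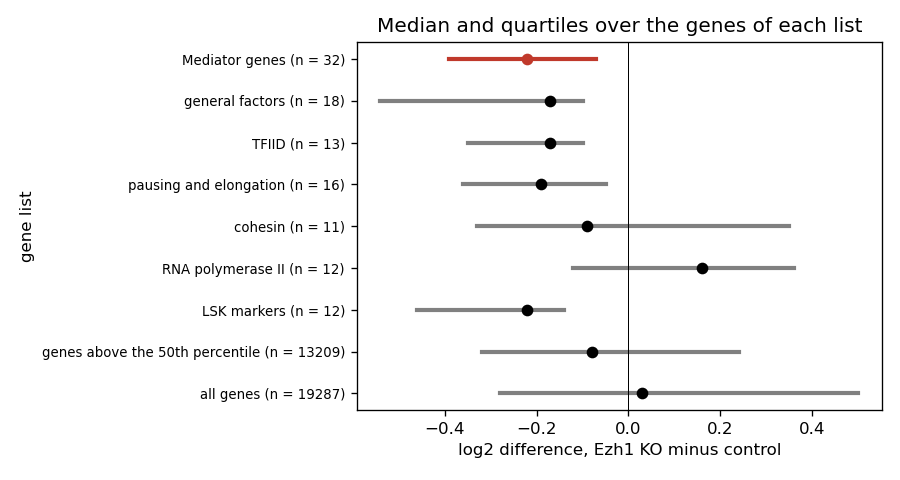
Log2 difference, Ezh1 KO minus control, as the median (point) and quartiles (bar) over the genes of each list. The medians of Mediator, -0.22, and of the general factors, -0.17, lie below 0, and that of the polymerase subunits lies above it at 0.16, though below it at -0.06 under median centring.

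Markers of other blood cells moved between the groups as well. All 13 neutrophil markers were higher on the Ezh1 KO arrays with a median of 2.39, and their summed intensity was 146788 and 195053 on those arrays against 79809 and 84602 on the control arrays. Markers of B cells (9 of 9 higher, median 1.54), T and NK cells (8 of 8 or, under quantile normalization and cyclic loess, 7 of 8, median 0.93) and monocytes (6 of 6, 0.89) were also higher. Erythroid markers were lower in 6 of 7, with a median of -0.34, and 5 megakaryocyte markers had a median of -0.05 that turned to 0.04 under cyclic loess. The LSK markers Kit, Ly6a, Cd34 and Flt3 were detected on all arrays. Slamf1, at -0.87, was detected on only 1 Ezh1 KO array and on both control arrays. Of the 12 LSK markers 10 were lower, while Ly6a was higher by 0.69 and Procr by 0.15. Their median of -0.22 equalled that of Mediator, and under median centring both medians were -0.44. With an offset of 50 added to the intensities the LSK median was -0.23, against -0.22 for Mediator. Under quantile normalization it was -0.36, against -0.23 for Mediator, and under cyclic loess -0.28 against -0.20. Whether the lists share a shift was not tested. No marker passed limma's adjusted threshold. An unadjusted p under 0.05 was found for 12 of the 13 neutrophil, 7 of 9 B-cell, 3 of 8 T and NK and 1 of 6 monocyte markers. For LSK, erythroid and megakaryocyte markers the count was 0, and over all 43759 probes it was 2513. The markers were chosen with earlier results of these data known, so these counts are a description and not a test. In bulk RNA fewer cells of a type and less RNA per cell cannot be told apart, and the part these cells have in the Mediator differences was not tested. Ezh1 itself read 2069 and 3730 on the Ezh1 KO arrays against 2658 and 2620 on the control arrays (log2 difference 0.27, limma adjusted p = 0.787). The deleted stretch is not known here, so this probe does not check the labels. Ezh2 read 4850 and 4787 on the Ezh1 KO arrays against 9443 and 6433 on the control arrays (log2 difference -0.49, limma adjusted p = 0.78).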

How the data were processed

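RNA of sorted LSK cells was amplified from small amounts before labelling, per the labels' protocols, which list differing amplification cycle numbers without tying them to samples. For 55677 probes the authors deposited an unscaled intensity on each array, without detection flags. The submitters' processing notes name Agilent Feature Extraction. Their ratio (fold) and p-value per probe are in a deposited comparison table, with the gene symbols used here, per the file headers. The log2 of the authors' deposited ratios differed from the differences computed here by at most 0.00249. The deposited series matrix values, apparently on a log scale with unknown centring, were not used: their column medians were -2.59 and -2.05 for Ezh1 KO and -3.34 and -2.54 for control, and under the same probe names they correlated with the intensities at only 0.069 to 0.091.

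Intensities (values under 1 set to 1) were converted to log2 and each array's 75th percentile was subtracted. Those percentiles were 1095 and 1690 on the Ezh1 KO arrays and 1594 and 1531 on the control arrays, and the 20th percentiles, used as detection limit, were 22.8 and 87.3 on the Ezh1 KO arrays and 12.4 and 57.6 on the control arrays. A probe entered the analysis if both arrays of 1 group or the other exceeded the limit (43759 did), and the brightest such probe stood for a gene. The moderated linear model of limma 3.58.1, run under R 4.3.3, was fitted two-sided without a block to all these probes with Benjamini-Hochberg adjustment at 0.05. The scripts were tested on simulated data. With 2 arrays a group, their number limits the precision.

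The members, the modules, the lists of related genes, the markers and the motifs were chosen with earlier results of these data known. Every member is named. Array values are given for the kinase module, Med14, Med1, Med23, Med25 and the 5 largest differences each way, and up to 3 genes per related list were taken by unadjusted p. Alternatives changed the scaling, the filter, the probe, the block and the arrays used.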

Additional observations from a re-analysis of the deposited data

How the results depend on the processing

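Over the 14 alternatives run, the median of the Mediator genes stayed below 0. Not all of them could move it. Dropping the filter, adding the replicate block and taking members also by current symbols left the same probes and values, so -0.22 was fixed. Taking the second brightest probe left the 15 genes with 1 probe unchanged. Median centring gave -0.44, where 1 Mediator gene (Med1) was higher, and the median of all genes was then -0.19, a shift that this setting gives every gene. The distance of the Mediator median from that of all genes was -0.34 to -0.08 over the alternatives, and -0.08 without control 1. Leaving out 1 array at a time gave medians of -0.34 to -0.11, 5 to 10 genes higher and 19 to 26 genes with separate groups, against 13 with all arrays. With a single array left in a group separation is easier. Without control 2, where 26 Mediator genes were separate, 39.5% of all genes lay below and 40.7% above. Nothing is read from these counts. In these fits the lone array is assumed to vary like the other group. The number of probes called was 0 except under the 50th percentile filter, where 1 was called (Gm3219, log2 difference 6.72, limma adjusted p = 0.0415, against 0.78), named after its value was seen; the cause was not tested. That filter left out Med13 and Med18. With the replicate block 0 probes were called, the lowest limma adjusted p was 0.206 and 9158 probes had an unadjusted p under 0.05, against 2513 without it. Deviations of arrays of the same number correlated at 0.69 over probes, but with 2 pairs the numbers were not taken to pair the samples. The alternative with the series matrix values was not run, since their row names did not match the intensities.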
